A study of Mus musculus with 6 samples.

Results

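Nkx3-2 (also called Bapx1), Pax1, Pax9, Barx1 and Barx2 encode transcription factors of the developing skeleton. They were followed in cells of the mouse limb bud sorted by the fluorescence of a Sox9 reporter. Probes were chosen by gene name among the non-control probes of an Agilent mouse array, and 7 probes of 5 genes were found among 55681 probes, which hold 21245 genes named through a RefSeq table. Nkx3-2, Pax1 and Barx1 had 1 probe each, Pax9 and Barx2 had several, and no probe carried the name Bapx1. Because the Pax1 probe was printed 10 times on each array, the 7 probes filled 16 of 59305 non-control spots.

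The cells came from the forelimb autopod, the part of the limb bud that forms the hand plate, of embryos at stage E11.5. All embryos carried a Sox9-EGFP knock-in, in which the green fluorescent protein reports the activity of the Sox9 gene, on a C57BL/6 background. Cells of about 10 autopods were pooled for each sample and separated by fluorescence-activated sorting. The positive group held 3 samples of EGFP-positive cells and the negative group 3 samples of EGFP-negative cells from the same kind of embryo, so that both groups carried the reporter and differed in its fluorescence. The labels state neither the sorting thresholds nor separate litters for the replicates, so that p-values measure the spread between these samples.

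Nkx3-2 is a homeodomain repressor of the NK family. In the sclerotome, the part of the somite that forms the vertebrae, it acts downstream of Sonic hedgehog and of the paired-box factors Pax1 and Pax9, and it can recruit histone deacetylases, lower Runx2 and help to keep cells in the cartilage programme. In later skeletal development Nkx3-2 is known in jaw and digit joints and in cartilage. Pax1 and Pax9 are close relatives that act together in the vertebral column. Barx1 and Barx2 are homeodomain factors of the Bar family, known in tooth, craniofacial and stomach mesenchyme and in muscle and limb cartilage respectively.

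The values of each gene belong to the stretch of transcript that its 60-base probe matches, and 3 of these stretches carry the results below. The Nkx3-2 probe is shown because the gene with the largest difference rests on it alone. It matched chr5:42152989-42153048 on the minus strand (mm9, as in the array files), and 1 reading frame of its sequence holds no stop codon. The same was found for the Pax1, Pax9 and Barx1 probes and Barx2 probe A_55_P2030046, so it does not set the Nkx3-2 probe apart. The G and C content of the Nkx3-2 probe, 55%, was above the median of 43.33% over all probes. The Barx2 probes are shown because they gave different results. Their matches, also on the minus strand, start 426 bases apart, at chr9:31653924-31653983 for A_55_P2030046 and chr9:31654350-31654409 for A_55_P2030045. A stretch of 30 bases is given for each. Capitals mark the hexamer AATAAA, the signal that directs cleavage and polyadenylation of messenger RNA, read on the strand of the probe. That hexamer was found in 10.06% of the 60-base probes and, among the 7 probes here, at base 37 of A_55_P2030045. A match of 6 letters is a description and no evidence that the site is used.
Nkx3-2 A_55_P2177113: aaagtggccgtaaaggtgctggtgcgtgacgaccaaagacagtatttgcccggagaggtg
Barx2 A_55_P2030045, bases 25 to 54: ccattaagctaaAATAAAgttctttgaggg
Barx2 A_55_P2030046, bases 31 to 60: ttctgtagttttaagagaattgaatttttt

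All levels below are log2 values of the processed signal over the 75th percentile of the same array, so that 0 is the signal of a spot at that percentile. Positive sample 1 stood apart from the other arrays. Its 75th percentile was 125.5 units against 384.5 to 478.4 on the other arrays. The hindlimb gene Pitx1, which is not part of the forelimb programme, was at 3.88 in it, against -5.01 and -3.77 in the other positive samples and -1.17, -0.49 and -1.02 in the negative samples. Tbx4, another hindlimb gene, was at 2.89 in it, against 1.24 and 1.32 in the other positive samples and 0.23 to 0.29 in the negative samples. Results for the members are therefore also given without this sample. The forelimb gene Tbx5, the autopod genes Hoxa13 and Hoxd13 and the mesenchymal genes Prrx1 and Pdgfra were well above background on all 6 arrays. Summed markers of other cells also differed. The 6 ectoderm markers summed to 9.02 to 10.65 times the 75th percentile in positive and 1.77 to 2.16 in negative samples, mostly through Krt18. Krt18 and Krt8 were the higher ones of its 4 tested markers, while Epcam (-0.43, adjusted p of 0.167) and Krt14 (-0.03, adjusted p of 0.937) did not pass. The 6 muscle precursor markers summed to 0.139 to 0.258 in positive and 0.597 to 1.31 in negative samples. The 6 blood markers reached 43.0 in negative sample 2, against 1.08 to 4.96 on the other arrays, and the 5 macrophage markers 13.1 against 0.419 to 1.96.

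Nkx3-2 was higher in Sox9-EGFP positive cells. Its log2 level was -0.97, -1.20 and -0.86 in positive samples 1 to 3 and -3.52, -3.998 and -3.75 in negative samples 1 to 3. All positive samples lay above all negative samples. Groups without overlap, in either direction, were found for 51.3% of all genes tested. The Nkx3-2 probe was well above background on all 6 arrays. Its negative values were nevertheless not far from the weakest signal called above background, which lay between -4.65 and -4.53 on the negative arrays. The mean was -1.01 ± 0.17 (SD, n = 3) in the positive and -3.76 ± 0.24 (SD, n = 3) in the negative group. The difference of 2.75 ± 0.16 (SE) on the log2 scale is 6.72-fold, with a 95% interval of 2.35 to 3.15 and an adjusted p of 0.000265 in limma. In bulk samples such as these, more cells with Nkx3-2 RNA and more RNA per cell cannot be told apart.

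The difference in Nkx3-2 recurred on each slide. On each of 3 slides 1 positive and 1 negative sample had been hybridised together, and positive exceeded negative by 3.03, 2.55 and 2.66 on the log2 scale on slides 1, 2 and 3. With slide as a block the adjusted p was 0.00159. Without positive sample 1 the difference was 2.73, with an adjusted p of 0.000602. The size depended on the processing. It was 1.36 after normexp background correction and quantile normalisation, with an adjusted p of 0.000649 in limma. In the values that the authors deposited in the series matrix it was 1.32, with an adjusted p of 0.000636. With no scaling between arrays it was 2.10, with an adjusted p of 0.0323. Which step of the processing changed the size was not tested. Krt18, Krt8 and 3 of 4 tested muscle precursor markers differed between the same arrays, while the ectoderm markers Epcam and Krt14 did not pass. What part other cells had in the Nkx3-2 result was not tested.

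Of the 13197 genes that could be tested, 4617 (35.0%) passed an adjusted p of 0.05, 1400 (10.6%) as higher in positive cells and 3217 (24.4%) as lower. Of the 3 members that could be tested as genes, Nkx3-2 passed, and Pax9 and Barx2 did not, so that 1 of 3 is close to the share of all genes. Ranked by size, Nkx3-2 had the 110th highest difference of the 13197 genes, Barx2 the 1048th and Pax9 the 5552nd. The median difference of all genes was -0.18 on this scale, and relative to it Nkx3-2 was higher by 2.93. Sox9, the gene reported on by the sort, had log2 levels of 3.52, 2.99 and 3.60 in positive and -0.88, -0.999 and -1.13 in negative samples, a difference of 4.37 ± 0.19 (SE) with an adjusted p of 0.000146. That difference follows from the way the cells were chosen and serves as a check of the labels.

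**Figure D1:**
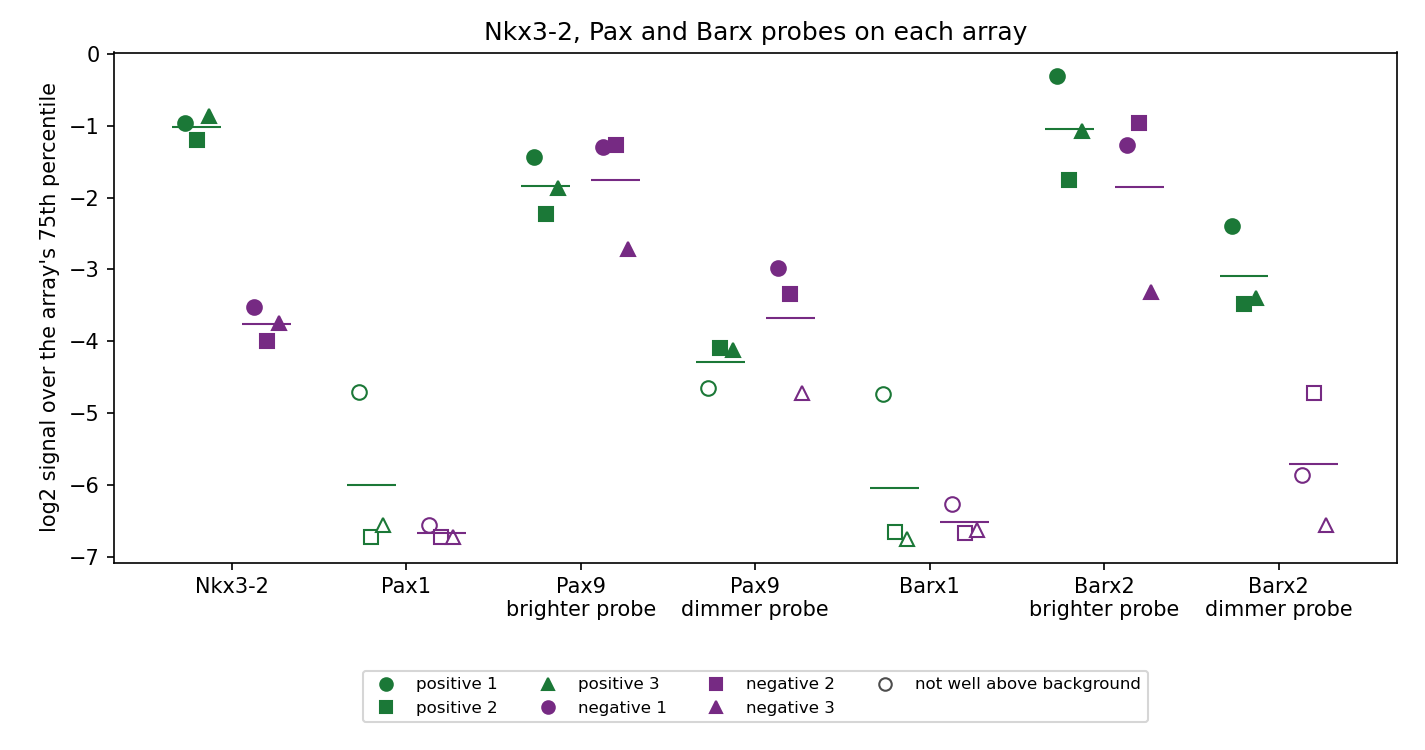
Log2 signal over the 75th percentile of the array (vertical axis) for the 7 probes of Nkx3-2, Pax1, Pax9, Barx1 and Barx2 (horizontal axis) in each of 3 positive (green) and 3 negative (purple) samples. Bars are group means, and open symbols are arrays on which the probe was not well above background. The groups are apart for Nkx3-2 and for the dimmer Barx2 probe, and overlap for the other probes.

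Pax9 did not differ between the groups beyond the spread of the samples. The probe that stands for the gene, A_55_P2117908, at chr12:57811230-57811289 on the plus strand, was well above background on all 6 arrays. Its log2 levels were -1.43, -2.23 and -1.86 in positive and -1.30, -1.26 and -2.72 in negative samples. The groups overlapped, with negative sample 3 the lowest of all and negative samples 1 and 2 the highest. The difference was -0.08 ± 0.43 (SE) on the log2 scale, with an adjusted p of 0.90 and a 95% interval of -1.13 to 0.97. With 3 samples a group, a change within that interval, in either direction, is therefore not excluded. By slide the difference was -0.17, 0.49 and -0.56, and it was -0.29 without positive sample 1 and -0.56 without negative sample 3, with adjusted p of 0.653 and 0.185.

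A second Pax9 probe, A_55_P1955756 at chr12:57812158-57812217, starts 928 bases further along. Its log2 levels were -4.66, -4.10 and -4.12 in positive and -2.98, -3.34 and -4.72 in negative samples. It was well above background on positive samples 2 and 3 and negative samples 1 and 2, and on neither of the others. With no group measured on all its arrays it was left out of the test. The lowest value in the negative group was again that of sample 3, and the groups overlapped.

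Pax1, the partner of Pax9 in the sclerotome, gave no usable level. Its probe, A_51_P145322 at chr2:147200673-147200732, had log2 values of -4.71, -6.73 and -6.56 in positive and -6.56, -6.72 and -6.73 in negative samples, none of them well above background. Of its 10 spots, 1 was called above background, on positive sample 1, and that spot had been set aside as an outlier. The higher value of positive sample 1 goes with the lower 75th percentile of that array: the weakest signal called above background lay at -2.73 there and between -4.77 and -4.53 on the other arrays. No fold is given for Pax1, since both groups were below background, and lower amounts of Pax1 RNA were not detectable.

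Barx2 gave different results with its different probes. The probe that stands for the gene, A_55_P2030046, was well above background on all 6 arrays, at log2 levels of -0.30, -1.75 and -1.07 in positive and -1.27, -0.96 and -3.32 in negative samples. The groups overlapped, and negative sample 3 lay far below the other arrays. The difference was 0.81 ± 0.68 (SE), with an adjusted p of 0.398 and a 95% interval of -0.84 to 2.45. Within slides it was 0.66, 1.56 and 0.20, each above 0, with an adjusted p of 0.0796 when slide was a block. It fell to 0.44 without positive sample 1 and to 0.075 without negative sample 3, with adjusted p of 0.654 and 0.924.

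The other Barx2 probe, A_55_P2030045, was above background in positive cells alone. Its log2 levels were -2.40, -3.49 and -3.40 in positive samples, all well above background, and -5.86, -4.73 and -6.56 in negative samples, none of them well above background. The groups did not overlap, as the filter made likely, since the probe passed it through the positive group alone. Because the negative level is a bound, with each array's weakest signal called above background in its place, the probe was at least 2.85-fold higher on this scale. In a fit of 17696 named probes, in which 5489 (31.0%) passed and 1714 (9.69%) were higher, its adjusted p was 0.0125. The adjusted p was 0.00263 with slide as a block and 0.0192 without positive sample 1. The call was lost with no scaling between arrays, at an adjusted p of 0.0673. The size depended on the processing, as for Nkx3-2. The log2 difference was 0.57 after normexp background correction and quantile normalisation and also 0.57 in the authors' values. Both lie below the bound given above, with adjusted p of 0.0175 and 0.0161 in limma. These p-values rest on negative values below background.

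Whether the Barx2 probes moved unequally was examined by subtracting one log2 value from the other on each array. A_55_P2030045 minus A_55_P2030046 was -2.10, -1.73 and -2.33 in positive and -4.59, -3.76 and -3.24 in negative samples. The groups did not overlap and differed by 1.81, with a 2-sided exact permutation p of 0.1, the smallest that 3 against 3 samples allow. With the undetected negative values set to the weakest signal called above background, the negative values were -3.26, -3.67 and -1.33. The groups then overlapped and differed by 0.70, with an exact p of 0.4. The unequal change therefore rested on values below background. Probes of a gene often parted in these data: of 2431 genes with several probes whose brightest probe was not called, 347 (14.3%) had a dimmer probe that was, and of 1244 whose brightest probe was called, 584 (46.9%) had all their probes called.

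Barx1 had no array on which its probe was well above background. Its probe, A_55_P2030040 at chr13:48761442-48761501, had log2 values of -4.73, -6.66 and -6.76 in positive and -6.26, -6.67 and -6.63 in negative samples. As with Pax1, positive sample 1 was the highest, on the array with the lowest 75th percentile, and no fold is given. The order of samples recurred in the members with measured levels too. Positive sample 1 was the highest positive sample and negative sample 3 the lowest negative sample for the Pax9 and Barx2 probes that stand for their genes, an order shared by 12.9% of all tested genes. It did not hold for Nkx3-2.

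**Figure D2:**
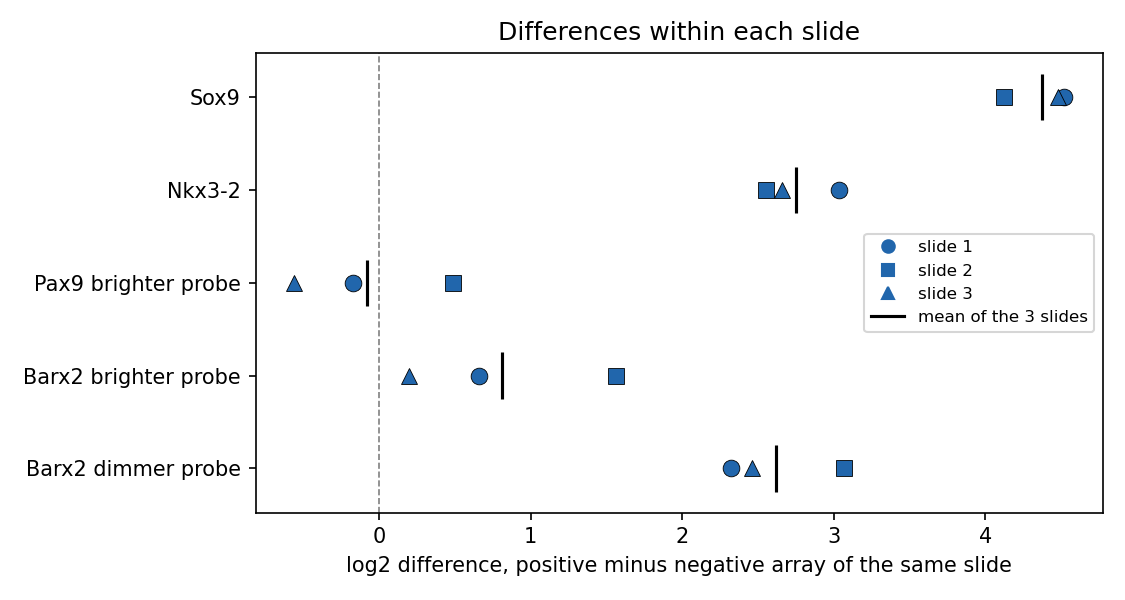
Log2 difference between the positive and the negative array of each of 3 slides (horizontal axis) for Sox9, Nkx3-2, the tested Pax9 probe and both Barx2 probes (rows), with the mean of the slides as a bar. Nkx3-2 lies between 2.55 and 3.03 and Sox9 above 4, Pax9 falls on both sides of 0, and the negative levels of the dimmer Barx2 probe were below background.

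Few neighbours of the members changed. Probes within 200 kb of a member were read by the coordinates in the files, and 33 of 53 could be tested in a fit of 26473 probes, of which 21.6% passed. Beside Barx1, 2 of 25 tested probes passed, both of the phosphatase gene Ptpdc1, at -88.1 and -86.6 kb from the Barx1 probe. They were higher in positive cells by 0.48 and 0.44 on the log2 scale, with adjusted p of 0.0414 and 0.0473. The Ptpdc1 call was lost in the fit over genes when positive sample 2 or 3 or negative sample 1 or 3 was left out, with adjusted p of up to 0.0738. The zinc finger gene Zfp169 (0.26 and 0.45) did not pass, though in the fit over genes it did with slide as a block, at an adjusted p of 0.0273. The demethylase gene Phf2 (-0.20) and the unnamed transcripts beside Barx1 did not pass. The single tested neighbour of Nkx3-2 was Rab28, which encodes a small GTPase, at a difference of 0.73 with an adjusted p of 0.357. Rab28 was lower in positive sample 1, at -0.08, than in positive samples 2 and 3, at 1.74 and 1.65. Without positive sample 1 it differed by 1.32, with an adjusted p of 0.00571. Beside Pax1, Nkx2-2 (0.57, adjusted p of 0.431, and 0.0353 in the fit over genes with slide as a block) and both other tested probes did not pass, nor did the tested neighbours of Pax9 (1 probe) and Barx2 (3 probes).

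Among 16 regulators, partners and targets of Nkx3-2, all of which could be tested, 5 were higher and 1 lower in positive cells. These 6 calls are close to the share of 35.0% over all genes, of which 10.6% were higher and 24.4% lower. The median difference of the list was 0.24 against -0.18 over all genes. Among the higher genes of the list is Sox9, on which the cells were sorted. Without it 4 of 15 were higher and 1 lower, with a median of 0.16. The higher genes included the cartilage collagen gene Col2a1 (5.19 ± 0.20 SE, adjusted p of 0.000145) and Sox6, a partner of Sox9 in cartilage. Sox6 was not well above background in negative cells and was at least 12.3-fold higher in positive cells (adjusted p of 0.000938). Sox6 passed the filter through the positive group alone, so its p-value rests on negative values below background. In the hedgehog pathway, which acts upstream of Nkx3-2 in the somite, members went in different directions. The ligand gene Shh had log2 values of -4.84, -6.68 and -6.83 in positive samples, not well above background, and -1.66, -2.21 and -0.85 in negative samples. Shh was thus at least 5.63-fold lower in positive cells (adjusted p of 0.00323). Shh passed the filter through the negative group alone, so its p-value rests on positive values below background. The receptor and target gene Ptch1 was at 1.001, 0.98 and 0.99 in positive and 0.17, -0.09 and 0.25 in negative samples, higher by 0.89 ± 0.12 (SE, adjusted p of 0.00378). Of the transcription factors of the pathway, Gli2 was higher by 1.45 (adjusted p of 0.00403). Gli1 (0.16, adjusted p of 0.284) and Gli3 (0.09, adjusted p of 0.586) did not pass. They passed as higher after quantile normalisation, Gli1 at 0.53 and Gli3 at 0.42, with adjusted p of 0.0136 and 0.0421.

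Other genes tied to Nkx3-2 did not pass. Runx2, the osteoblast regulator that Nkx3-2 can repress, was at -4.89, -6.40 and -4.02 in positive and -3.79, -3.74 and -4.31 in negative samples, with overlapping groups. It was well above background on 1 positive and all 3 negative arrays, and its difference of -1.16 ± 0.58 (SE) had an adjusted p of 0.168. Under quantile normalisation Runx2 passed as lower, at -1.74 with an adjusted p of 0.0454. Hdac1, which encodes a deacetylase that Nkx3-2 can recruit, was at -0.33 with an adjusted p of 0.0501, and at 0.01 after quantile normalisation. Hdac1 passed as lower in limma with array weights (-0.30, adjusted p of 0.0293) and with trend and robust moderation (adjusted p of 0.0325). Acan, the cartilage proteoglycan gene, differed by 0.58 (adjusted p of 0.351), and by 1.08 with an adjusted p of 0.0244 without positive sample 2.

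Of 12 sclerotome and axial skeleton regulators, 10 could be tested. Of these, 4 were higher and 2 lower in positive cells, against 10.6% and 24.4% of all genes, with a median difference of 0.37. Foxc1, a forkhead factor of sclerotome and cartilage, had the largest difference of the list, 7.47 ± 0.39 (SE, adjusted p of 0.00019). It was measured well above background on 2 of 3 negative arrays. Its relative Foxc2 was higher by 3.47 ± 0.20 (SE, adjusted p of 0.000232), and the tendon and sclerotome gene Scx by 1.34 (adjusted p of 0.00309). The somite homeobox genes Meox1 and Meox2 parted: Meox1 was higher by 2.45 and Meox2 was at -1.43, with adjusted p of 0.00403 and 0.00355. Twist1, a mesenchymal regulator, was at -1.92 (adjusted p of 0.000387) and so lower in positive cells.

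Most relatives of the members among the Pax, Bar and NK genes were too dim. Only 6 of 23 passed the filter on dim probes. Of these, limma called none higher and 1 lower in positive cells, against 10.6% and 24.4% of all genes. By an unadjusted p under 0.05 in limma, 0 were higher and 2 lower. The lower one was Pax3, the paired-box gene of muscle precursors and neural crest, at least 4.19-fold lower with an adjusted p of 0.00277. That p-value rests on positive values below background. Pax3 is also among the muscle precursor markers that were lower in positive cells, and what part these cells had in it was not tested. Nkx1-1 was at -1.24 with an adjusted p of 0.0533, and passed as lower at -1.62 with an adjusted p of 0.0302 without negative sample 3, and at 0.0233 with slide as a block. Nkx2-6 (0.74, adjusted p of 0.299) and Nkx2-2 (0.57, adjusted p of 0.376) did not pass, the latter other than with slide as a block, as above.

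Genes of limb bud regions were compared because the members are known for regional expression. Among anterior genes, Lhx9 was at -1.93 (adjusted p of 0.000366) and so lower in positive cells. Alx1 was not above background in positive cells and was at least 1.86-fold lower there on this scale (adjusted p of 0.0175, resting on those values). The log2 difference of Alx1 was -0.77 both after normexp and quantile normalisation and in the authors' values, which is smaller than that bound. Its call was lost when any of the negative samples was left out, with adjusted p of 0.0512 to 0.0623, and with no filter on background (0.0555). Of 12 posterior genes, all tested, 3 were higher and 6 lower, against 10.6% and 24.4% of all genes, with a median of -0.59. Besides Shh, the lower genes included Bmp2 (-2.15, adjusted p of 0.00104), Tbx2 (-1.60, adjusted p of 0.0025) and Hoxd13 (-1.61, adjusted p of 0.00268), and the higher genes were Ptch1, Sall1 and Osr1. The call of Osr1 was lost without positive sample 3 or negative sample 3, with adjusted p of 0.0514 and 0.0674.

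Of 12 joint region genes 11 could be tested, of which 8 were higher and 1 lower in positive cells, with a median of 1.58, where 10.6% of all genes were higher and 24.4% lower. Of these 9 calls, 5 were left without negative sample 3 and 1 with no scaling between arrays. Sfrp2, a secreted Wnt antagonist, was higher by 1.89 ± 0.15 (SE, adjusted p of 0.000595), and the transcription factor gene Erg by 1.58 (adjusted p of 0.0073). Wnt16 was not above background in negative cells and was at least 3.23-fold higher in positive cells (adjusted p of 0.00623, resting on those negative values). Gdf6, which encodes a growth factor of joints, was the lower one, at -0.89 (adjusted p of 0.00962). Noggin, encoded by Nog and an inhibitor of bone morphogenetic proteins, was at 0.73 with an adjusted p of 0.279. With slide as a block Nog passed as higher, at an adjusted p of 0.0278. Krt18, Krt8 and 3 of 4 tested muscle precursor markers differed between the same arrays, while the ectoderm markers Epcam and Krt14 did not pass. What part other cells had in the counts of joint region genes was not tested.

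**Figure D3:**
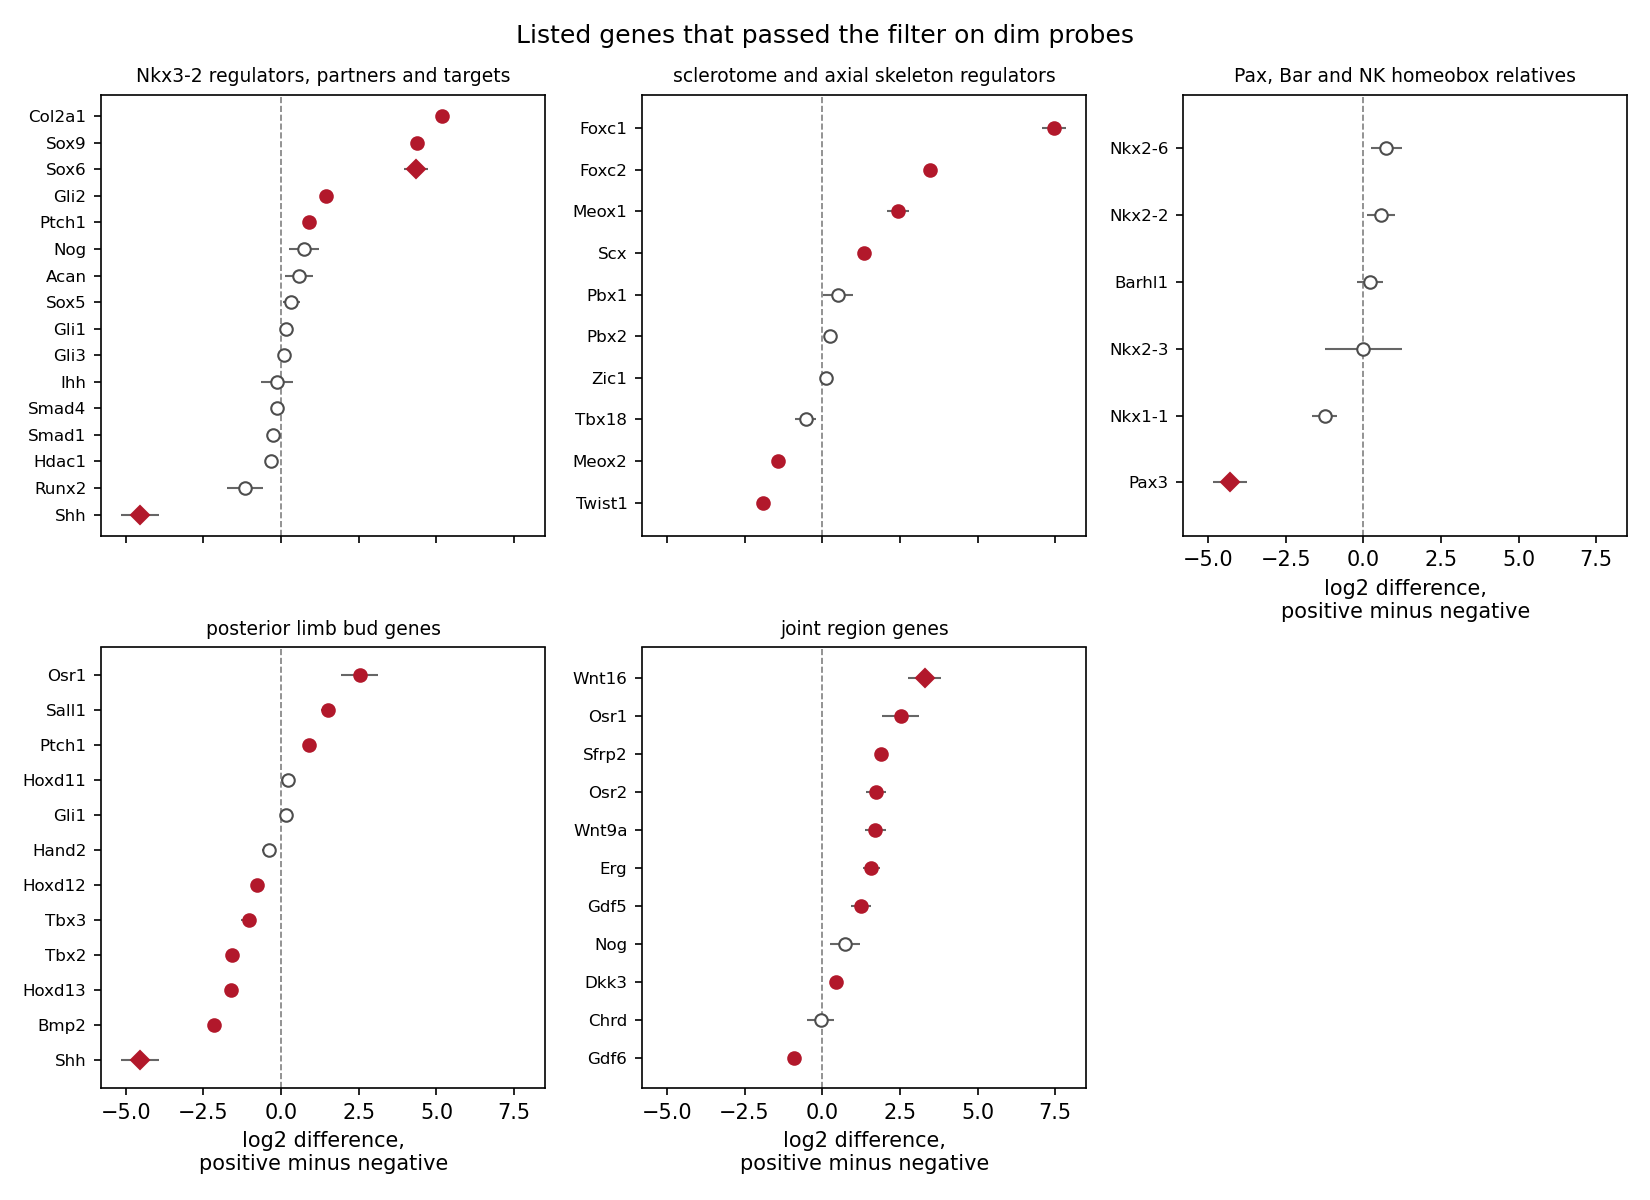
Log2 difference between positive and negative cells (horizontal axes) for the tested genes of 5 lists (panels, genes in rows). Points are fitted differences with their SE, filled where the adjusted p was under 0.05, and diamonds are genes that 1 group did not show above background on its arrays, for which the text gives a lower bound. Foxc1 at 7.47 and Col2a1 at 5.19 lie farthest to the right, and Shh and Pax3 farthest to the left.

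The genes whose profile over the 6 arrays was closest to that of Nkx3-2, by the root mean square difference of gene-centred log2 values, were Chrdl1, Wipf3 and Cspg4. Chrdl1 encodes a secreted antagonist of bone morphogenetic proteins and Cspg4 a membrane proteoglycan. Their distances from Nkx3-2 were 0.122, 0.154 and 0.179, with Pearson r of 0.996, 0.996 and 0.992 over 6 arrays. Each was higher in positive cells, by 2.73, 2.54 and 2.72, as their choice by profile made likely. For Pax9 the closest profiles were those of Pygm, Grm5 and Gnaz (0.130, 0.165 and 0.179), for which the group difference was -0.26, 0.03 and 0.14. For the Barx2 probe that stands for the gene they were Lepr, Krt2 and Nuak2 (0.20, 0.202 and 0.232), and for A_55_P2030045 Sorl1, Man2b2 and Gm9767 (0.179, 0.290 and 0.335). The compared genes were read on the same 6 arrays and share their slides and signal strength, so these are descriptions of likeness and carry no test. In the profiles of Pax9 and of A_55_P2030046, negative sample 3 was the lowest array for the gene and for each of its 3 closest genes. That likeness follows from picking genes by the same profile.

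**Figure D4:**
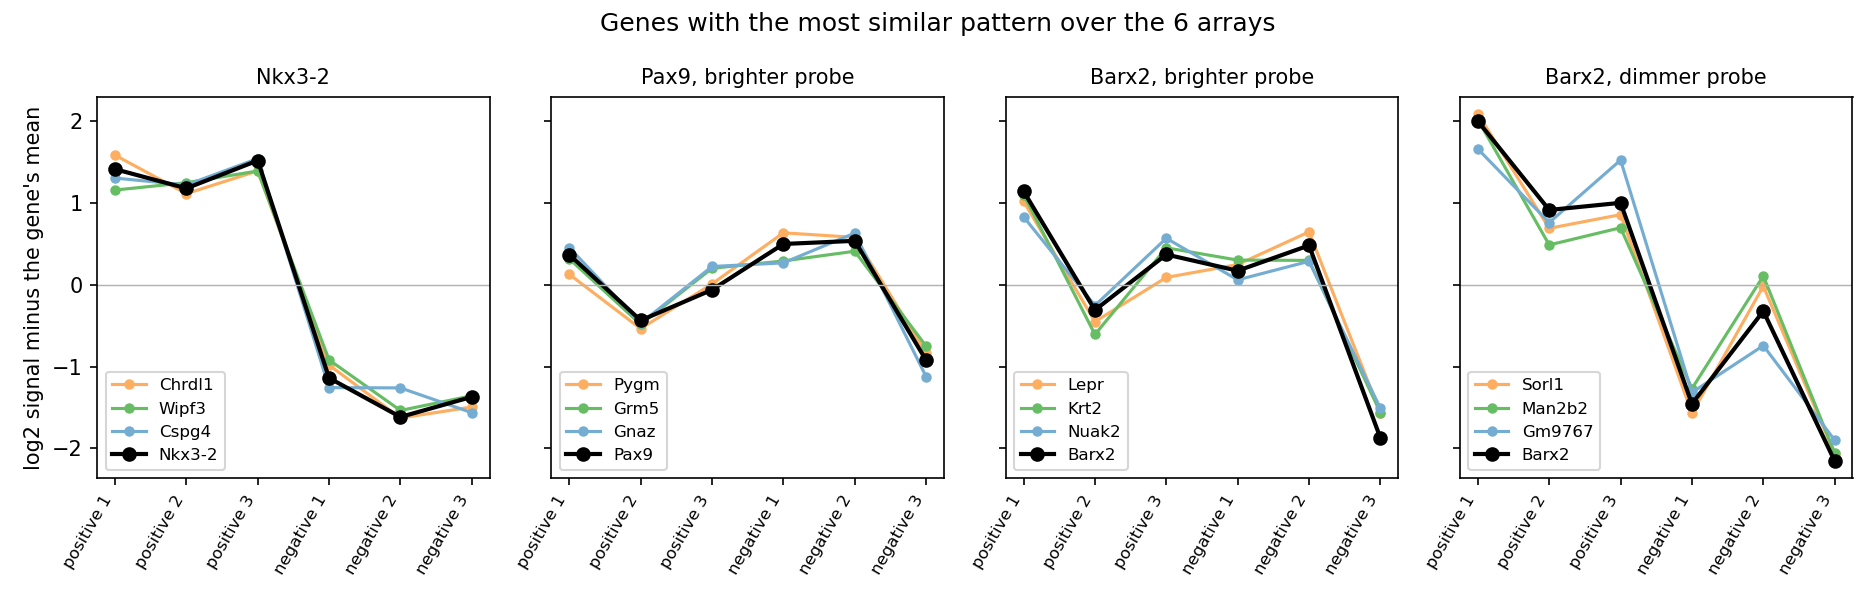
Log2 signal minus the mean of the gene (vertical axis) on each of the 6 arrays (horizontal axis) for Nkx3-2, Pax9 and both Barx2 probes (black) with the 3 genes of most similar pattern (colours). Nkx3-2 and its companions step down between the groups, while Pax9 and the brighter Barx2 probe with theirs are lowest in negative sample 3.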

How the data were processed

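RNA of 6 sorted samples was hybridised to 1-colour Agilent arrays of 62976 spots. Per the file headers, Feature Extraction 10.7.3.1 made the deposited processed signal, an intensity, with probe positions on mm9. The authors' deposited series matrix holds log2 values, each array with a median of 6.41. They followed log2 mean signals (r of 0.996 to 0.998), their processing being otherwise not given in the sources used here, and served as an alternative. The members and gene lists were chosen with earlier results of these data known.

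Log2 processed signal minus each array's 75th percentile of non-control spots was used. Spots set aside as outliers were left out and replicate spots averaged. Probes had to be well above background on all 3 arrays of a group (26490 probes), and the brightest probe stood for its gene. Genes were named through accessions, current symbols or older symbols of a RefSeq table of another build (26300, 2044 and 355 probes), and 26982 probes stayed unnamed. Groups were compared with limma 3.58.1 (lmFit and eBayes, R 4.3.3) over 13197 genes with Benjamini-Hochberg adjustment at 0.05, and the fit was tested on simulated data. Arrays limit precision by their number, 3 a group.

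Named are all members, Sox9, up to 4 genes of each list with the smallest adjusted p, tested neighbours, the 3 most similar genes and the 2 brightest markers of a cell type. Gli1, Gli2, Gli3, Ptch1, Runx2, Hdac1, Acan, Nog, Meox1, Meox2, Sall1, Osr1 and the limb and marker genes named for a call or a sample that stood apart were chosen after their values were seen. Alternatives were normexp with an offset of 50 and quantile normalisation, quantile normalisation alone, median centring, no scaling, the authors' values, other filters and probe rules, other moderation, array weights, slide or replicate number as a block, a threshold of 0.01, and each array left out. The counts of 1 gene list, of anterior limb bud genes, are not reported here.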

Additional observations from a re-analysis of the deposited data

How the results depend on the processing

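Nkx3-2 kept its direction and its call in all 20 alternatives, from 1.32 to 2.90, with adjusted p of up to 0.0323. Barx2 stayed uncalled in all 20, between 0.075 and 1.71. Pax9 changed sign, uncalled, with median centring (0.069) and when single arrays were left out (-0.56 to 0.17). Barx2 probe A_55_P2030045 missed the threshold with no scaling (1.97) and at 0.01 (2.62). Both values rest on negative values below background, so neither is a measured size, and the bound given above stands in their place. The cause of the changes between settings was not tested. The 4617 called genes became 542 with no scaling, 2656 with no filter on background, 2109 at 0.01 and 2485 to 5176 with 1 array left out, the highest without positive sample 1, with 2911 without positive sample 3, 2542 without negative sample 1 and 2485 without negative sample 3. Samples of the same replicate number did not deviate together throughout (correlations of deviations of -0.27, -0.42 and 0.16). With 3 arrays a group these values cannot settle whether samples were paired by number. With the replicate number as a block 2157 genes passed, and Nkx3-2 had an adjusted p of 0.00365. Arrays of the same slide deviated together (0.46, 0.36 and 0.23), and with slide as a block 5245 genes passed. The share of lower genes among the called was 69.7%, and 53.7% to 55.4% with normexp, quantile or median scaling or the authors' values. Of the lists, the Pax, Bar and NK relatives had 2 called genes with normexp, quantile normalisation, the authors' values or array weights, 3 with slide as a block, 0 when all 6 arrays had to be above background, and 1 to 2 with 1 array left out. Posterior genes fell to 4 and joint genes to 1 with no scaling, and joint genes to 5 at 0.01 and 5 to 9 with 1 array left out. Signal near background limits Pax1, Barx1 and the second Pax9 probe. For the Pax1 and Barx1 probes, below background in both groups, no difference is given.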

Other observations

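Of 17 tested markers of other cells 6 were called (35.3%), against 35.0% of all genes. Among muscle precursor genes, Lbx1 was at -3.60 (adjusted p of 0.00175) in the comparison of positive with negative cells, and 3 of 4 tested markers were lower. The call of Myod1 in this list was lost without positive sample 2 or 3 or negative sample 1 or 2, with adjusted p of up to 0.115. It rested on positive values below background. Of 4 tested ectoderm markers, the keratin genes Krt18 (2.59, adjusted p of 0.000155) and Krt8 (1.22, adjusted p of 0.0018) were higher, while Epcam and Krt14 did not pass and Krt5 and Cdh1 could not be tested. Sox10, of Schwann and neural crest cells, was higher by 1.70 (adjusted p of 0.0253), which was lost without positive sample 3 or negative sample 1 or 3, at up to 0.0862. Blood (Hbb-y and Hbb-bh1 brightest), endothelium (Kdr and Pecam1) and macrophage (Csf1r) genes had no calls in limma among 4, 2 and 1 tested, and 1, 0 and 0 by an unadjusted p under 0.05. The blood gene Hba-a1 was at -2.44 (adjusted p of 0.102), and at an adjusted p of 0.025 with slide as a block.

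Of 5 limb mesenchyme genes, Pdgfra was higher by 0.79 (adjusted p of 0.00471), while Msx1 (-4.56), Lhx2 (-2.19) and Twist1 were lower in positive cells and Prrx1 did not pass. Tbx5, the forelimb gene, was higher by 1.02 (adjusted p of 0.00492). Tbx4 was higher by 1.55, with an adjusted p of 0.0356, and this call was lost without positive sample 3 or any negative sample (up to 0.108).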
